A study of Mus musculus with 36 samples.

Results

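The Schlafen family of the mouse was followed through an experiment on bone marrow-derived macrophages (BMDM) exposed to lipopolysaccharide (LPS), a bacterial cell wall product. The 7 genes Slfn1, Slfn2, Slfn3, Slfn4, Slfn5, Slfn8 and Slfn9 were taken by name from the 54232 genes with deposited read counts, and all 7 were among the 12957 genes that passed a filter on low counts. RNA was sequenced in 36 libraries. The cells had been cultured from bone marrow over 5 days in MCSF, a macrophage growth factor, at 20 ng/mL. The genotype label is WT, named in the series text as wild type C65BL6, or NOS1 KO, and the treatment is a control or 100 ng/mL LPS for 2 or 8 h, with 6 libraries in each of the 6 groups. No animal, sex, age, culture or knockout construct is named in the sources used here, so p-values measure the spread between libraries, which may be technical.

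Counts of the targeted gene went against the genotype label. Nos1, which encodes neuronal nitric oxide synthase, stood between 0 and 0.255 CPM (counts scaled to a common library size) in the WT-labelled control libraries and between 2.46 and 5.07 CPM in the KO-labelled ones. At 2 h of LPS its range was 0 to 0.300 CPM under the WT label and 2.35 to 4.11 CPM under the KO label, and at 8 h it was 0 to 0.855 and 1.005 to 2.06 CPM. Nos1 was thus higher in every KO-labelled library than in any WT-labelled library of the same treatment (edgeR's quasi-likelihood test with Benjamini-Hochberg adjustment, adjusted p = 9.19e-08 in controls), and the sources used here do not say which part of the gene was deleted. The groups are therefore called WT-labelled and KO-labelled, and no direction below is tied to a loss of Nos1.

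Schlafen genes take their name from the German word for sleeping, because Slfn1 was first described as a brake on the growth of developing T cells. The mouse family has short forms (Slfn1 and Slfn2), intermediate forms (Slfn3 and Slfn4) and long forms with an added helicase-like part (Slfn5, Slfn8 and Slfn9), and several members are known as genes switched on by type I interferon. In macrophages LPS is sensed by Tlr4 with Cd14 and Ly96, signals through Ticam1 and Tbk1 to Ifnb1, and the secreted interferon beta acts back on the cells through the receptor chains Ifnar1 and Ifnar2 and the kinases Jak1 and Tyk2.

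Total counts ran from 8953489 to 18482551 per library. Principal component 1 of the remaining genes, with each group centred on its mean, held 35.2% of the variance and split every group into 3 and 3 libraries. The 18 libraries on one side (replicates 1, 2 and 6 of each group) are called library set A and the other 18 (replicates 3, 4 and 5) library set B; replicate numbers follow accession order, no label names these sets, and the members were not used to find them. All 7 macrophage markers were detected, with summed levels between 12318 and 21056 CPM. The 11 neutrophil markers differed between the sets without overlap, for example 31.2 to 50.01 CPM in set A and 196 to 219 CPM in set B of the WT-labelled controls, although Ly6g, which defines neutrophils, had 23 counts in all 36 libraries together. Summed B cell markers were also higher in set B without overlap in every group, with 4.58 to 7.37 and 12.9 to 13.4 CPM in the WT-labelled controls. Dendritic cell markers went the other way, with 75.4 to 88.1 CPM in set A and 49.8 to 69.6 CPM in set B there, and overlapped only in the WT-labelled 2 h group. Summed skeletal muscle markers passed 100 CPM in 4 WT-labelled libraries, replicates 5 and 6 at 2 h (178 and 478 CPM) and replicates 5 and 6 at 8 h (3956 and 107 CPM). In bulk RNA, fewer cells of a type and less RNA per cell cannot be told apart.

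The 7 genes lie in 1 stretch of 263.8 kb on chromosome 11 (mm10, 82951349 to 83215154) in the order Slfn5, Slfn9, Slfn8, Slfn2, Slfn1, Slfn4 and Slfn3. Slfn8 and Slfn9 are read from the minus strand and the others from the plus strand. RefSeq (GRCm38.p6) gave a start site for all 7 and a second one for Slfn8, so that 8 windows of 250 bases before a start were searched on both strands. The core of the interferon-stimulated response element (ISRE), GAAANNGAAA, was found before the starts of the 3 long forms and in 4 of the 8 windows (the windows of Slfn8 overlap and hold the same match, which counts for both), against 2.98% of 32851 mouse promoter windows of the same length. A gamma-activated site, TTCNNNGAA, and an NF-kB site, GGGNNTTTCC, were in 0 of the 8 windows, against 7.02% and 1.41% of all windows. These are matches of letters and not measured binding. The windows of the long forms are shown because the match is common to them and because Slfn8 and Slfn9 were alike over 82.4% of their bases. They are written 5′ to 3′ on the gene's own strand, with the ISRE core or its reverse complement in capitals, and the Slfn5 window ends where an exon of another Slfn5 transcript begins. Slfn5 (chr11:82951852-82951984, plus strand, match starting 155 bases before the start), Slfn8 (chr11:83020811-83021060, minus strand, 48 bases) and Slfn9 (chr11:82991831-82992080, minus strand, 45 bases) read as follows.
Slfn5: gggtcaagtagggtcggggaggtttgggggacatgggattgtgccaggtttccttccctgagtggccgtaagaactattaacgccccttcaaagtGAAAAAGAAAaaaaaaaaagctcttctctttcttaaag
Slfn8: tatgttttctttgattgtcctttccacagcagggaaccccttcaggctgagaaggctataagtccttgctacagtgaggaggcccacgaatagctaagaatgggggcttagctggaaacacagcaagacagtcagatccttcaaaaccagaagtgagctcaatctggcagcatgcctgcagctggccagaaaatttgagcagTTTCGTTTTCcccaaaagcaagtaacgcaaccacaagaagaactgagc
Slfn9: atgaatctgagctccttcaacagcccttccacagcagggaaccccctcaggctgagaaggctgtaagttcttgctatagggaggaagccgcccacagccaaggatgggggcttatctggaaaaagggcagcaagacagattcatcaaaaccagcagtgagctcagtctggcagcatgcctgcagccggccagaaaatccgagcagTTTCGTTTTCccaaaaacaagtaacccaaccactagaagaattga

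The short and intermediate forms held no ISRE core in these windows, but shared another run of letters. An ETS-type core, CAGGAAGT, was found before all 4 of them and before none of the long forms, against 2.69% of all promoter windows. ETS factors include PU.1, which macrophages make in large amounts. This motif was chosen after the sequences were seen, so its share beside that of all windows is a description and not a test. In Slfn2 it overlapped the only match to an ETS-IRF composite element, GGAANNGAAA, which 2.3% of all windows hold. The 100 bases before each start are shown with the core in capitals, mostly as its reverse complement ACTTCCTG, for Slfn1 (chr11:83116720-83116819), Slfn2 (chr11:83065012-83065111), Slfn3 (chr11:83191230-83191329) and Slfn4 (chr11:83175086-83175185), all on the plus strand. The RefSeq start of Slfn1 differs from its start in GENCODE.
Slfn1: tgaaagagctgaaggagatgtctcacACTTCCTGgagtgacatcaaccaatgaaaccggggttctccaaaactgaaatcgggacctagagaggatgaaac
Slfn2: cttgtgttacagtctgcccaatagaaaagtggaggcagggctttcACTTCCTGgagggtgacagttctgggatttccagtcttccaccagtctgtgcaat
Slfn3: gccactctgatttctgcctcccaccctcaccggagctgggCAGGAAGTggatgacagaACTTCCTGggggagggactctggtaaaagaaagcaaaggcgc
Slfn4: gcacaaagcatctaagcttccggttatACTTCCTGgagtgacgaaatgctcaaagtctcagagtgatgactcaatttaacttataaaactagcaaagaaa

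Some reads of these genes cannot be placed on 1 member alone. The longest transcripts of Slfn8 and Slfn9 were 92.6% identical over 3496 bases, and those of Slfn3 and Slfn4 were 92.9% identical over 1406 bases. Of all stretches of 100 bases in a member's transcripts, 0% for Slfn1, 0.128% for Slfn2, 0.271% for Slfn4, 2.92% for Slfn3, 3.38% for Slfn8, 3.71% for Slfn9 and 6.4% for Slfn5 also occurred in another gene. Most of those of Slfn5 lie in Slfn5os, an antisense gene that shares 559 exon bases with it, and held at most 4 counts in any library. Whether the counting used strand is not stated in the sources. With stretches of 50 bases the shares were 0.606% for Slfn1, 4.27% for Slfn2, and between 11.1% and 16% for the other members. Values of all members but Slfn1 are uncertain to an extent that depends on the read length, which the sources used here do not give.

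Slfn2 was the most abundant member in every group on a scale that allows genes to be compared, CPM per kilobase (kb) of exon. In WT-labelled controls its level was 87.4 ± 28.4 CPM per kb (mean ± SD, n = 6), followed by Slfn5 at 12.2 ± 2.43, Slfn9 at 6.88 ± 1.51, Slfn8 at 3.78 ± 1.29, Slfn3 at 2.49 ± 0.474, Slfn4 at 0.487 ± 0.184 and Slfn1 at 0.173 ± 0.149. The library ranges of Slfn9 and Slfn8, of Slfn8 and Slfn3 and of Slfn4 and Slfn1 overlapped. Compared within each library, Slfn9 was above Slfn8 in all 6. In replicate 3 Slfn8 (3.07) was just below Slfn3 (3.09), and Slfn4 (0.321) was below Slfn1 (0.410). The order was not tested. At 8 h of LPS the order under the WT label was Slfn2 at 1441 ± 78.1 CPM per kb, Slfn5 at 332 ± 63.8, Slfn8 at 181 ± 62.0, Slfn4 at 106 ± 61.2, Slfn1 at 62.6 ± 15.4, Slfn9 at 36.2 ± 15.8 and Slfn3 at 12.3 ± 4.04. Slfn8 and Slfn4, Slfn4 and Slfn1, and Slfn1 and Slfn9 overlapped there. KO-labelled libraries had the same order of pooled means at 8 h, from 1588 ± 132 CPM per kb for Slfn2 to 14.5 ± 3.25 for Slfn3. The middle of this order depended on the library set. In set A under the WT label Slfn4 (46.7 to 59.0 CPM per kb), Slfn1 (40.0 to 64.1) and Slfn9 (46.5 to 53.4) were level, and under the KO label Slfn9 (52.6 to 71.8) was above Slfn4 (38.1 to 43.3) and Slfn1 (38.6 to 44.7). In set B Slfn4 was above Slfn8, at 142 to 173 against 122 to 127 CPM per kb under the WT label and 196 to 264 against 173 to 184 under the KO label, and Slfn1 was above Slfn9. Slfn2, Slfn5 and Slfn3 kept the first, second and last place in both sets.

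As a share of the family's summed CPM per kb, Slfn2 held 76.3 ± 3.62% in WT-labelled controls, 91.3 ± 1.13% at 2 h and 66.4 ± 1.97% at 8 h (mean ± SD, n = 6). Under the KO label these shares were 75.7 ± 5.84%, 89.2 ± 3.52% and 64.2 ± 1.09%. At 2 h the family signal was therefore nearly all Slfn2. At 8 h Slfn5 held 15.2 ± 2.34% and Slfn8 8.25 ± 2.48% of it in WT-labelled libraries.

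**Figure D1:**
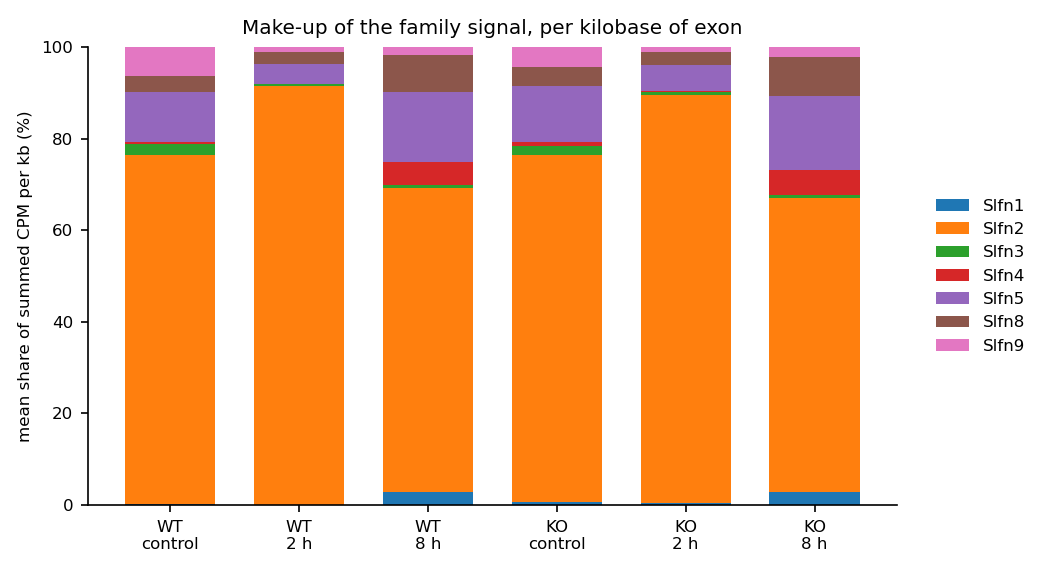
Mean share of each Schlafen gene in the family's summed CPM per kb of exon (y axis, %) in the 6 groups (x axis, WT-labelled and KO-labelled, 6 libraries each). Slfn2 fills 76.3% of the bar in WT-labelled controls, 91.3% at 2 h and 66.4% at 8 h.

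The short forms rose after LPS, Slfn2 mostly by 2 h and Slfn1 mostly later. Slfn2 (ENSMUSG00000072620, chromosome 11, 83065112 to 83070678), which keeps resting T cells quiescent and is needed for immune cell survival, had a lowest, median and highest level of 110, 131 and 236 CPM in WT-labelled controls, 1200, 1404 and 1939 CPM at 2 h and 2238, 2387 and 2595 CPM at 8 h. The 3 groups did not overlap, and the highest control was replicate 1. Slfn2 rose by a log2 fold change of 3.35 (SE 0.17, adjusted p = 1.07e-17) at 2 h and of 4.04 (SE 0.18, adjusted p = 3.95e-20) at 8 h, so that most of its rise on this scale was present at 2 h. Under the KO label the control range was 146 to 293 CPM (median 246), against 1338 to 1729 CPM (median 1421) at 2 h and 2216 to 2837 CPM (median 2695) at 8 h. These groups did not overlap either, and Slfn2 rose by 2.69 (SE 0.17, adjusted p = 2.14e-15) and 3.52 (SE 0.17, adjusted p = 9.15e-19) on the log2 scale.

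Slfn1 (ENSMUSG00000078763, 83116849 to 83122670), the founding member of the family, was near the detection limit in controls and ended as a clearly expressed gene. In WT-labelled libraries its lowest, median and highest levels were 0, 0.255 and 0.764 CPM in controls, which together held 26 counts, 1.14, 1.76 and 4.20 CPM at 2 h and 74.6, 127 and 143 CPM at 8 h. WT-labelled control replicate 2 had 0 counts, which allows up to 0.181 CPM (3 counts, counting error only). The groups were separate, with replicate 1 far above the rest at 2 h. The log2 fold change was 2.77 (SE 0.91, adjusted p = 0.0145) at 2 h, where limma-voom gave an adjusted p of 0.0638, and 8.56 (SE 0.78, adjusted p = 9.02e-12) at 8 h. KO-labelled libraries ranged from 0.0682 to 6.92 CPM (median 2.32) in controls and from 0.822 to 11.6 CPM (median 6.01) at 2 h. In the pooled fit these overlapping groups did not differ past the threshold (log2 fold change 1.0, SE 0.58, adjusted p = 0.195). At 8 h the KO-labelled libraries ranged from 71.9 to 203 CPM (median 138), and Slfn1 rose by 5.48 (SE 0.61, adjusted p = 7.88e-10) over controls. The KO-labelled libraries of set B stood above those of set A in each treatment. Fitted with edgeR in each set alone, the 2 h rise of Slfn1 under the KO label was called. It was 2.41 (SE 0.78, adjusted p = 0.0228) in set A and 0.93 (SE 0.13, adjusted p = 2.58e-06) in set B.

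The intermediate forms rose at 8 h. Slfn4 (ENSMUSG00000000204, 83175186 to 83190216), a gene known from cells of the myeloid line, stood at 1.27, 1.63 and 2.97 CPM (lowest, median and highest) in WT-labelled controls, 1.04, 2.68 and 4.56 CPM at 2 h and 185, 399 and 687 CPM at 8 h. Controls and 2 h overlapped, and all 8 h libraries were far above both. The log2 fold change was 0.51 (SE 0.87, adjusted p = 0.693) at 2 h, which did not pass, and 7.76 (SE 0.90, adjusted p = 2.33e-09) at 8 h. Under the KO label the ranges were 0.793 to 19.7 CPM (median 6.65) in controls, 0.897 to 23.6 CPM (median 11.7) at 2 h and 151 to 1046 CPM (median 475) at 8 h. Only the 8 h libraries stood clear of the controls, with a log2 fold change of 6.08 (SE 0.81, adjusted p = 3.91e-08), against 0.58 (SE 0.70, adjusted p = 0.581) at 2 h.

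Slfn3 (ENSMUSG00000018986, 83191330 to 83215154), first described with T cell activation and later with gut epithelial differentiation, had the smallest mean CPM per kb of the members at 8 h. Its lowest, median and highest levels were 6.15, 8.58 and 10.5 CPM in WT-labelled controls, 11.2, 13.2 and 15.6 CPM at 2 h and 27.9, 42.1 and 56.2 CPM at 8 h. No group overlapped another, yet the 2 h difference did not pass in the fit of all 36 libraries (log2 fold change 0.63, SE 0.29, adjusted p = 0.0826). A fit of these 12 libraries alone gave 0.62 (SE 0.13, adjusted p = 0.00224). At 8 h Slfn3 rose by 2.30 (SE 0.29, adjusted p = 1.66e-08). With the KO label, controls (5.25 to 21.9 CPM, median 13.6) and 2 h libraries (9.86 to 25.9 CPM, median 17.7) overlapped, with a log2 fold change of 0.42 (SE 0.28, adjusted p = 0.269). The 8 h libraries, at 38.7 to 63.1 CPM (median 47.2), were above both and gave 1.88 (SE 0.29, adjusted p = 4.84e-07).

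All long forms rose at 8 h, and Slfn5 and Slfn8 also at 2 h under both labels. Slfn5 (ENSMUSG00000054404, 82951349 to 82964840), a nuclear Schlafen protein studied as a modulator of interferon signalling, had 61.9, 74.2 and 102 CPM (lowest, median and highest) in WT-labelled controls, 195, 235 and 415 CPM at 2 h and 1682, 2065 and 2548 CPM at 8 h. These groups were separate, and the log2 fold changes were 1.86 (SE 0.24, adjusted p = 1.19e-07) and 4.76 (SE 0.28, adjusted p = 6.47e-17). KO-labelled libraries had 81.0 to 229 CPM (median 145) in controls, 210 to 437 CPM (median 380) at 2 h and 2261 to 2876 CPM (median 2436) at 8 h. The lowest 2 h library lay inside the control range, and Slfn5 rose by 1.26 (SE 0.24, adjusted p = 6.28e-05) at 2 h and 4.06 (SE 0.27, adjusted p = 1.78e-15) at 8 h.

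Slfn8 (ENSMUSG00000035208, 83002158 to 83020810), a long form with the helicase-like part, stood at 12.4, 13.5 and 26.1 CPM (lowest, median and highest) in WT-labelled controls, 67.8, 81.1 and 169 CPM at 2 h and 498, 735 and 995 CPM at 8 h. The groups did not overlap, with replicate 1 the highest control. Slfn8 rose by 2.77 (SE 0.32, adjusted p = 7.11e-09) at 2 h and 5.58 (SE 0.36, adjusted p = 9.27e-16) at 8 h on the log2 scale. KO-labelled libraries held 17.4 to 57.3 CPM (median 33.1) in controls, 54.1 to 152 CPM (median 114) at 2 h and 707 to 1058 CPM (median 831) at 8 h. The lowest 2 h library again lay within the control range, and the log2 fold changes were 1.71 (SE 0.30, adjusted p = 2.2e-05) and 4.66 (SE 0.34, adjusted p = 3.01e-14).

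Slfn9 (ENSMUSG00000069793, 82978390 to 82991830), the near copy of Slfn8, had a higher control level in CPM, which are not corrected for exon length, and a smaller rise. It stood at 26.3, 43.1 and 50.6 CPM (lowest, median and highest) in WT-labelled controls, 46.6, 62.6 and 79.8 CPM at 2 h and 126, 207 and 318 CPM at 8 h. Controls and 2 h overlapped in 1 library of the 2 h group, and the rise of 0.65 on the log2 scale (SE 0.23, adjusted p = 0.0263) at 2 h was not called without the 4 libraries with muscle markers (0.58, adjusted p = 0.0753) or without the 6 libraries that carry BMDM in the genotype label, replicate 6 of each group (0.55, adjusted p = 0.0929). Leaving out any 1 of WT-labelled control replicates 2 and 6 and WT-labelled 2 h replicates 1 and 6 also took it over the threshold. At 8 h the rise was 2.40 (SE 0.24, adjusted p = 1.18e-10). Under the KO label controls ranged from 29.0 to 64.8 CPM (median 49.8), 2 h libraries from 48.0 to 74.7 CPM (median 67.2) and 8 h libraries from 241 to 428 CPM (median 284). Only the 8 h libraries were separate, with 0.42 (SE 0.23, adjusted p = 0.179) at 2 h and 2.70 (SE 0.25, adjusted p = 8.43e-12) at 8 h.

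**Figure D2:**
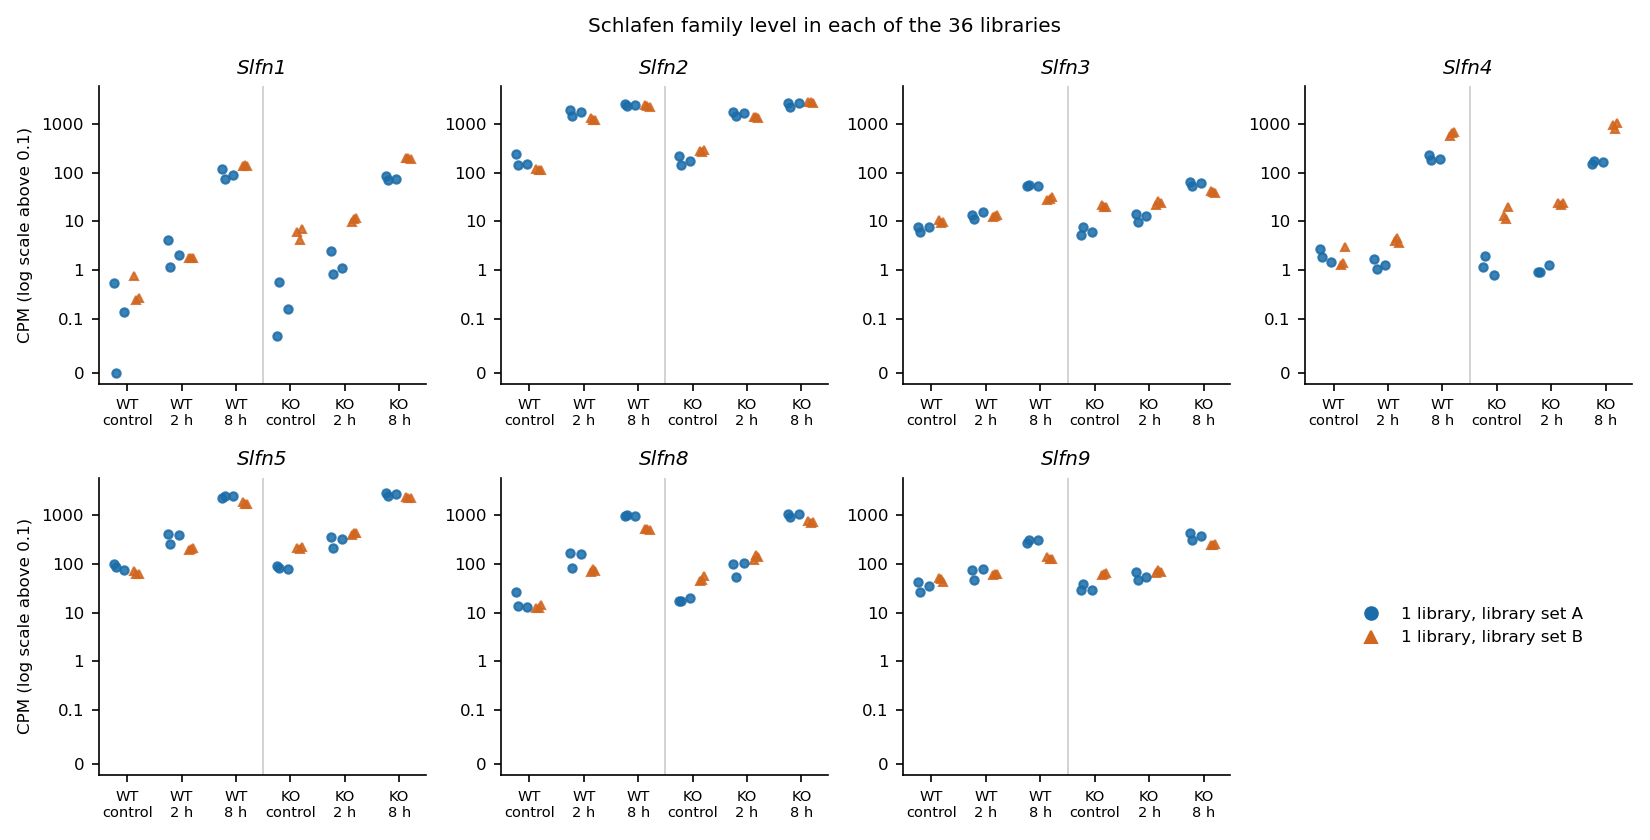
Level of each Schlafen gene in each of the 36 libraries (y axis, CPM, logarithmic above 0.1 and linear below) by genotype label and treatment (x axis), with circles for library set A and triangles for set B. All 8 h libraries lie above the controls of their label for every gene, while sets A and B part within the KO-labelled controls.

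Counted over the family, 5 of 7 members rose at 2 h under the WT label, where 20.3% of all tested genes were called higher, and 3 of 7 (Slfn2, Slfn5 and Slfn8) under the KO label, where 18.9% were. At 8 h all 7 members were called higher under both labels, against 34.2% and 34.9% of all genes. All 7 also rose from 2 h to 8 h, against 30% of genes under the WT label and 31.5% under the KO label. The median log2 fold change of the members was 1.86 at 2 h and 4.76 at 8 h under the WT label, and 1.0 and 4.06 under the KO label, while the median of all tested genes lay between -0.06 and -0.01. From 2 h to 8 h Slfn2 rose by only 0.69 (SE 0.16, adjusted p = 0.000305) under the WT label, and Slfn4 by 7.25 (SE 0.87, adjusted p = 7.58e-09). Scaled by library totals alone, the medians of all genes shifted to -0.32 at 2 h and -0.83 at 8 h under the WT label, and to -0.31 and -0.88 under the KO label. Of all calls, 53.4% were higher at 2 h and 48% at 8 h under the WT label and 53.5% and 48.5% under the KO label, against 20.7%, 19.9%, 20.3% and 19.5% by such totals. From 2 h to 8 h these shares were 47.8% and 48.3%, against 22.3% and 21.9%. Relative to such totals Slfn2 was no longer called between 2 h and 8 h under either label (0.23, adjusted p = 0.184, and 0.30, adjusted p = 0.077), nor Slfn9 at 2 h (0.34, adjusted p = 0.176), and no member turned its direction in these LPS comparisons.

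**Figure D3:**
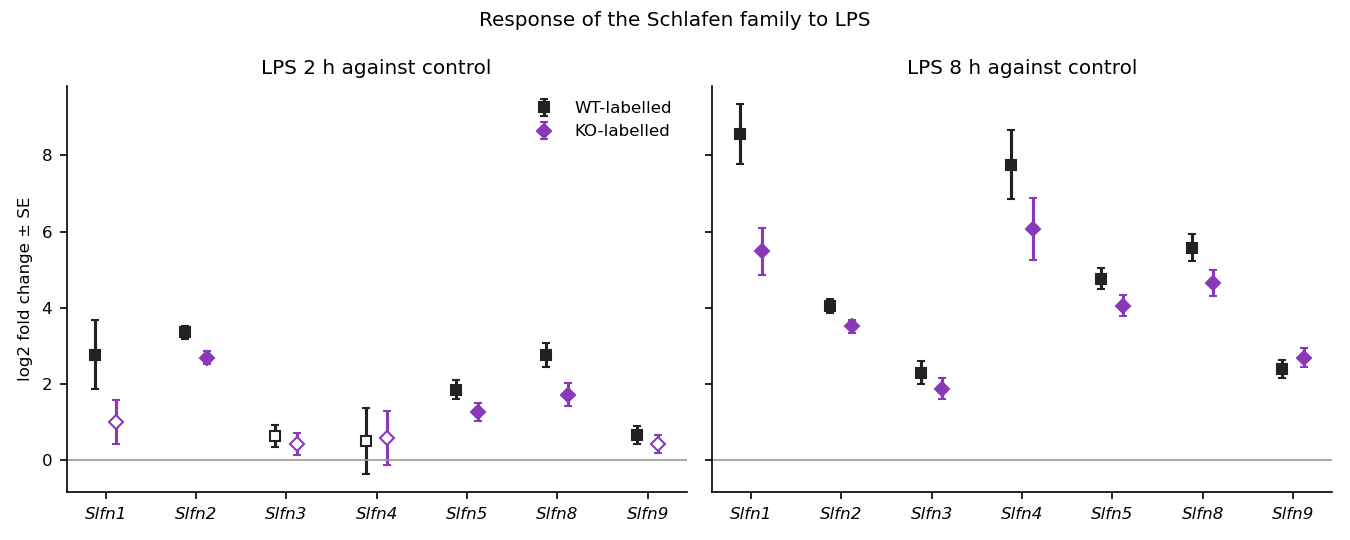
Log2 fold change with its SE (y axis) of each Schlafen gene (x axis) after LPS for 2 h (left) and 8 h (right) in WT-labelled (squares) and KO-labelled (diamonds) libraries. Filled symbols passed the adjusted p threshold of 0.05; at 8 h all 14 values passed, from 1.88 for Slfn3 to 8.56 for Slfn1.

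More members were called at 2 h within the library sets than in the pooled fit. In set A alone 6 of 7 members were called higher at 2 h under each label, against 21.2% of genes under WT and 18.5% under KO, and in set B alone all 7 were, against 26.5% and 25%. Beyond the pooled calls, both sets added Slfn3 under the WT label and Slfn1, Slfn3 and Slfn9 under the KO label. Slfn4 alone was called in set B and not in set A, under each label. It stood at 2.71, 1.81 and 1.46 CPM in WT-labelled control replicates 1, 2 and 6 of set A and at 1.71, 1.04 and 1.27 CPM in the 2 h replicates 1, 2 and 6 (log2 fold change -0.53, SE 0.29, adjusted p = 0.157), whereas in set B replicates 3, 4 and 5 it went from 1.27, 1.38 and 2.97 CPM to 3.90, 4.56 and 3.64 CPM (1.08, SE 0.35, adjusted p = 0.0118). Whether the 2 h response of Slfn4 differed between the sets was not tested.

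The other genes of the interferon pathway, listed with earlier results of these data known, moved along. Of all tested genes under the WT label, 20.3% were called higher and 17.7% lower at 2 h, and 34.2% and 37% at 8 h. Of 10 genes from the LPS receptor to interferon beta, 8 rose and 1 fell at 2 h under the WT label, with Ifnb1 up by 10.01 (SE 0.58) and the receptor Tlr4 down by a log2 change of -0.80 (SE 0.21). At 8 h 7 of 10 rose and Ifnb1 was up by 6.47 (SE 0.70). Of 10 receptor and signal transduction genes 9 rose at 2 h, and at 8 h 9 rose, Stat2 by 4.41 (SE 0.27), while Ifngr1, a chain of the receptor for interferon gamma, fell by 1.02 (SE 0.14). Of 5 interferon regulatory factors 3 rose and 1 fell at 2 h and 5 rose at 8 h, with Irf1 at 5.06 and then 4.82 and Irf7 at 1.94 and then 7.30. Of 5 inhibitors 3 rose at 2 h and 5 at 8 h, among them Socs1 (3.76 and 5.74) and Socs3 (8.01 and 8.68), which encode brakes on cytokine receptors.

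Under the KO label the same 4 lists had 8, 8, 2 and 2 genes called higher at 2 h, against 18.9% of all genes. At 8 h they had 7, 9, 5 and 5, against 34.9%. A list of 50 interferon-stimulated genes held no Schlafen gene, and 49 of them were tested. At 2 h 40 of the 49 rose under the WT label, against 20.3% of all genes, with a median of 1.77. Under the KO label 31 rose, against 18.9%, with a median of 1.12. At 8 h all 49 rose under both, against 34.2% and 34.9%, with medians of 5.25 and 4.80. The extremes at 8 h under the WT label were Cxcl10 (12.31) and Gbp5 (11.43) at the top and Trim25 (1.96) and Bst2 (2.75) at the bottom, a span that holds all 7 members.

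Between genotype labels, no member passed in edgeR's fit of the 6 groups, while other fits of the pooled control comparison called some. In controls, this edgeR fit called 0 of 7 members, against 0.147% of all genes, although 6 of 7 had an unadjusted p under 0.05. DESeq2 called 4 of them (Slfn1, Slfn2, Slfn5 and Slfn8), against 0.664% of all genes, and limma-voom called 0. The log2 difference KO-labelled minus WT-labelled was 3.31 (SE 0.86, adjusted p = 0.129) for Slfn1, 2.06 (SE 0.81, adjusted p = 1) for Slfn4, 1.16 (SE 0.31, adjusted p = 0.134) for Slfn8 and 0.96 (SE 0.24, adjusted p = 0.102) for Slfn5. Slfn2 and Slfn3 differed by 0.67 (SE 0.16, adjusted p = 0.0857) and 0.66 (SE 0.29, adjusted p = 1), and Slfn9 by 0.21 (SE 0.23, adjusted p = 1). The ranges of both labels overlapped for every member. Leaving out WT-labelled control replicate 1 brought 3 members past the threshold, as did leaving out KO-labelled control replicate 6, and leaving out KO-labelled control replicate 1 or 2 brought 2 or 4.

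At 2 h, where Slfn9 stood at -0.02, edgeR called 0 of 7 members between the labels, against 0.0232% of all genes, with 2 (Slfn1 at 1.53 and Slfn4 at 2.13) under an unadjusted p of 0.05. At 8 h it called 0 of 7, against 0.1% of genes, with 1 (Slfn9 at 0.51) under that p. KO minus WT differences in the response to LPS were called for 0 of 7 members at 2 h, against 0% of genes, and for 0 at 8 h, against 0%, with 2 and 4 members under an unadjusted p of 0.05. DESeq2 and limma-voom also called 0 members in these 4 comparisons. In the 8 h response the largest of these differences was that of Slfn1, at -3.08 (SE 1.01, adjusted p = 0.868).

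Libraries of set B and set A gave different values for this comparison. In set B the KO-labelled controls stood above all WT-labelled controls for each of the 7 members, and in set A the labels overlapped for each of them. For Slfn4 the set B controls read 1.27, 1.38 and 2.97 CPM under the WT label and 12.6, 11.3 and 19.7 CPM under the KO label, against 2.71, 1.81 and 1.46 and then 1.16, 1.97 and 0.793 CPM in set A. For Slfn5 they read 73.1, 61.9 and 63.7 and then 218, 200 and 229 CPM in set B, and 102, 87.8 and 75.2 and then 89.8, 83.0 and 81.0 CPM in set A. A fit of set B alone called all 7 members higher in KO-labelled controls, against 6.86% of genes, and a fit of set A alone called 0, against 0.0469%, with 0 members under an unadjusted p of 0.05. Only edgeR was run on the sets alone. With library set as a term in the pooled fit, Slfn1 and Slfn2 were called, against 0.232% of genes.

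The difference between the sets was tested as an interaction of genotype label and library set. In controls 5 of 7 members were called with a larger KO minus WT difference in set B than in set A, against 1.62% of all genes. The difference of differences was 3.54 (SE 0.44, adjusted p = 1.72e-06) for Slfn4, 1.86 (SE 0.33, adjusted p = 0.00041) for Slfn8 and 1.77 (SE 0.21, adjusted p = 4.37e-07) for Slfn5. It was 1.25 (SE 0.19, adjusted p = 5.34e-05) for Slfn2 and 1.24 (SE 0.19, adjusted p = 4.17e-05) for Slfn3, and it did not pass for Slfn1 (3.50, SE 1.25, adjusted p = 0.204) and Slfn9 (0.48, SE 0.22, adjusted p = 0.402). At 2 h of LPS 5 of 7 passed (Slfn1, Slfn3, Slfn4, Slfn5 and Slfn8), against 1.91% of genes, from 1.0 for Slfn3 (SE 0.18, adjusted p = 0.000498) to 3.47 for Slfn1 (SE 0.52, adjusted p = 5.44e-05). At 8 h 1 of 7, Slfn4, passed at 0.87 (SE 0.21, adjusted p = 0.0112), against 3.47% of genes. Slfn2, which passed in controls, was at 0.21 (SE 0.19, adjusted p = 0.848) at 2 h.

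Within set B alone, 6 of 7 members were also higher under the KO label at 2 h, against 6.59% of genes, and all 7 at 8 h, against 18.2%. In set A alone 0 of 7 were called at 2 h, against 0.0626% of genes, and 0 at 8 h, against 0.0391%, with 1 and 0 members under an unadjusted p of 0.05. The SE of this difference were larger in set A for every member, in controls, at 2 h and at 8 h. For Slfn5 at 8 h the difference was 0.15 (SE 0.18) in set A and 0.39 (SE 0.06) in set B. Counts of calls in the sets are thus not a like-for-like comparison. The log2 difference in set B shrank with time for Slfn1, from 3.83 (SE 0.26) in controls to 2.62 (SE 0.17) at 2 h and 0.50 (SE 0.08) at 8 h, and for Slfn4, from 2.96 (SE 0.27) to 2.53 (SE 0.21) and 0.54 (SE 0.11). In set B the response to LPS was smaller under the KO label for 3 of 7 members at 2 h (Slfn2, Slfn5 and Slfn8), against 0.879% of genes called lower, and for 6 of 7 at 8 h, against 8.18%. Slfn9 was the exception, with a larger 8 h response under the KO label (0.49, SE 0.08, adjusted p = 7.18e-05).

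**Figure D4:**
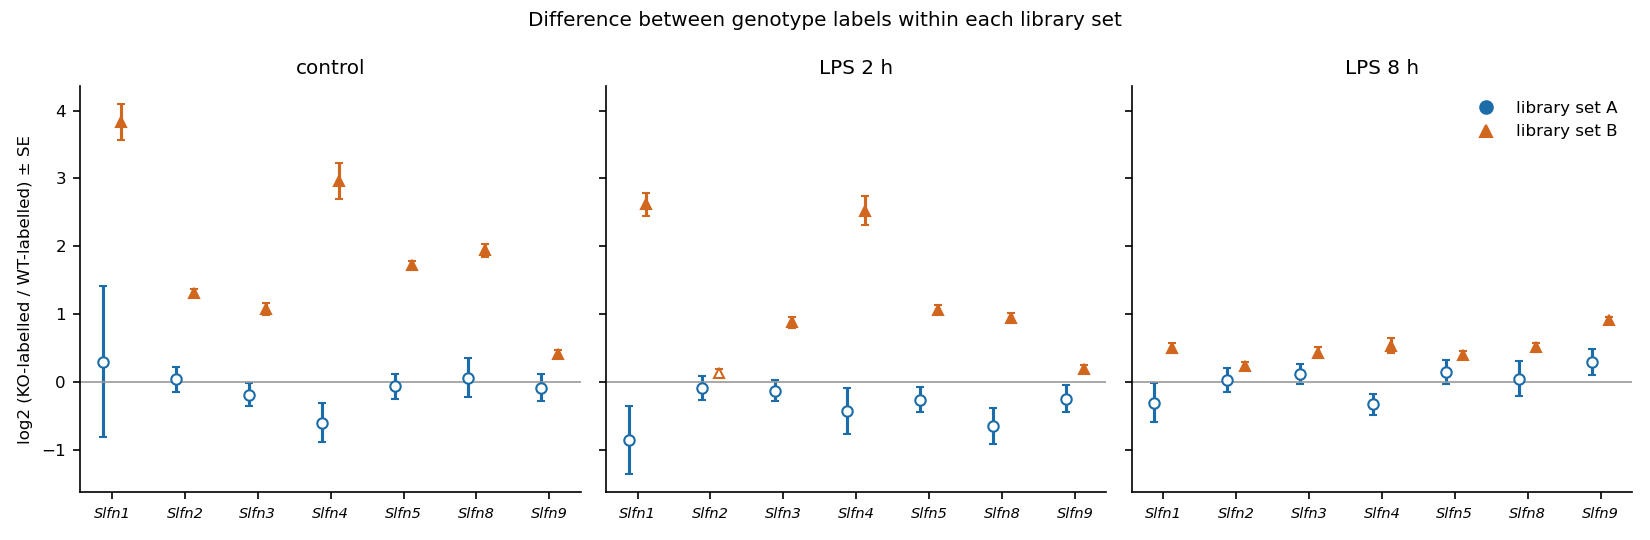
Log2 difference between KO-labelled and WT-labelled libraries with its SE (y axis) for each Schlafen gene (x axis) in controls and after LPS for 2 h and 8 h, fitted in library set A (circles) and set B (triangles) alone, 3 libraries per label each. Filled symbols passed the adjusted p threshold of 0.05: in set B all 7 in controls, 6 at 2 h and all 7 at 8 h, and in set A none.

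Other interferon-stimulated genes parted in the same comparison in controls and at 2 h. The interaction was called for 45 of the 49 tested in controls, against 2.01% of all genes. It was called for 39 at 2 h, against 2.25%, and for 1 at 8 h, against 5.79%. The medians were 2.30, 1.35 and 0.30, beside 1.77, 1.32 and 0.47 for the Schlafen members. Among pathway genes Irf7 (4.66, SE 0.45), Usp18 (4.22, SE 0.46), Stat2 (1.75, SE 0.22) and Irf9 (1.44, SE 0.14) passed in controls, and Ifnb1 (2.05, SE 0.20) at 2 h. Neutrophil markers moved the other way. Of the 10 tested, 6 had a lower interaction in controls, against 0.386% of all genes, 2 at 2 h, against 0.34%, and 4 at 8 h, against 2.32%. In set B controls their summed level was 196 to 219 CPM under the WT label and 116 to 134 CPM under the KO label. In set A controls it was 31.2 to 50.01 and 65.0 to 67.3 CPM. Summed levels of 6 stromal cell markers in set B controls were 31.8 to 35.7 CPM under the WT label and 12.5 to 16.7 CPM under the KO label, and the labels were also apart in set B at 2 h (35.4 to 42.7 and 16.9 to 20.3 CPM) and 8 h (59.3 to 204 and 33.4 to 36.8 CPM). The value of 204 CPM is that of WT-labelled 8 h replicate 5, which also held 3956 CPM of muscle markers. The other set B libraries of that group held 59.3 and 60.1 CPM. In set A the stromal sums of the labels overlapped in each treatment. Macrophage sums also parted the labels in set B, at 15810 to 16631 (WT) and 13879 to 15538 CPM (KO) in controls. They read 16706 to 17717 and 15550 to 16272 CPM at 2 h, and 20187 to 21056 and 18585 to 19644 CPM at 8 h. In set A they overlapped in each treatment. Summed T and NK cell markers in set B controls read 10.6 to 11.99 (WT) and 7.3 to 8.37 CPM (KO). At 8 h they went the other way (13.7 to 14.7 and 17.02 to 19.5 CPM). B cell sums overlapped in set B controls. The part of these cells in the Schlafen differences was not tested.

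At 8 h the sets also parted within each label, and the members went different ways. Under the WT label the mean CPM of set B over that of set A was 3.14 for Slfn4 and 1.48 for Slfn1, 0.952 for Slfn2 and 0.713 for Slfn5, and 0.541, 0.524 and 0.435 for Slfn3, Slfn8 and Slfn9. Slfn9 read 277, 308 and 318 CPM in set A and 138, 129 and 126 CPM in set B, and Slfn4 read 234, 185 and 191 CPM in set A and 564, 665 and 687 CPM in set B. Under the KO label the same ratios were 5.72 for Slfn4, 2.59 for Slfn1, 1.10 for Slfn2, 0.849 for Slfn5, 0.726 for Slfn8, 0.675 for Slfn3 and 0.666 for Slfn9. Slfn1 and Slfn4 were thus higher, and Slfn3, Slfn5, Slfn8 and Slfn9 lower, in set B under both labels at 8 h, as a description with no test. The summed neutrophil markers at 8 h were 36.1 to 70.8 CPM in set A and 225 to 237 CPM in set B under the WT label, and their part in these ratios was not tested.

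Genes around the stretch did not all follow. Within 500 kb of it lie 24 other protein-coding genes, of which 17 were tested. At 8 h under the WT label 10 of the 17 rose and 2 fell, against 34.2% and 37% of all tested genes. Their median log2 fold change was 1.23, beside 4.76 for the members. The largest values were those of Ccl5 (12.34), Heatr9 (10.23), Ccl3 (5.45) and Ccl4 (4.39), of which the Ccl genes encode chemokines. In controls the median difference between the labels was 0.03 for the neighbours and 0.96 for the members, and the median interaction with library set was 0.10 and 1.77.

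**Figure D5:**
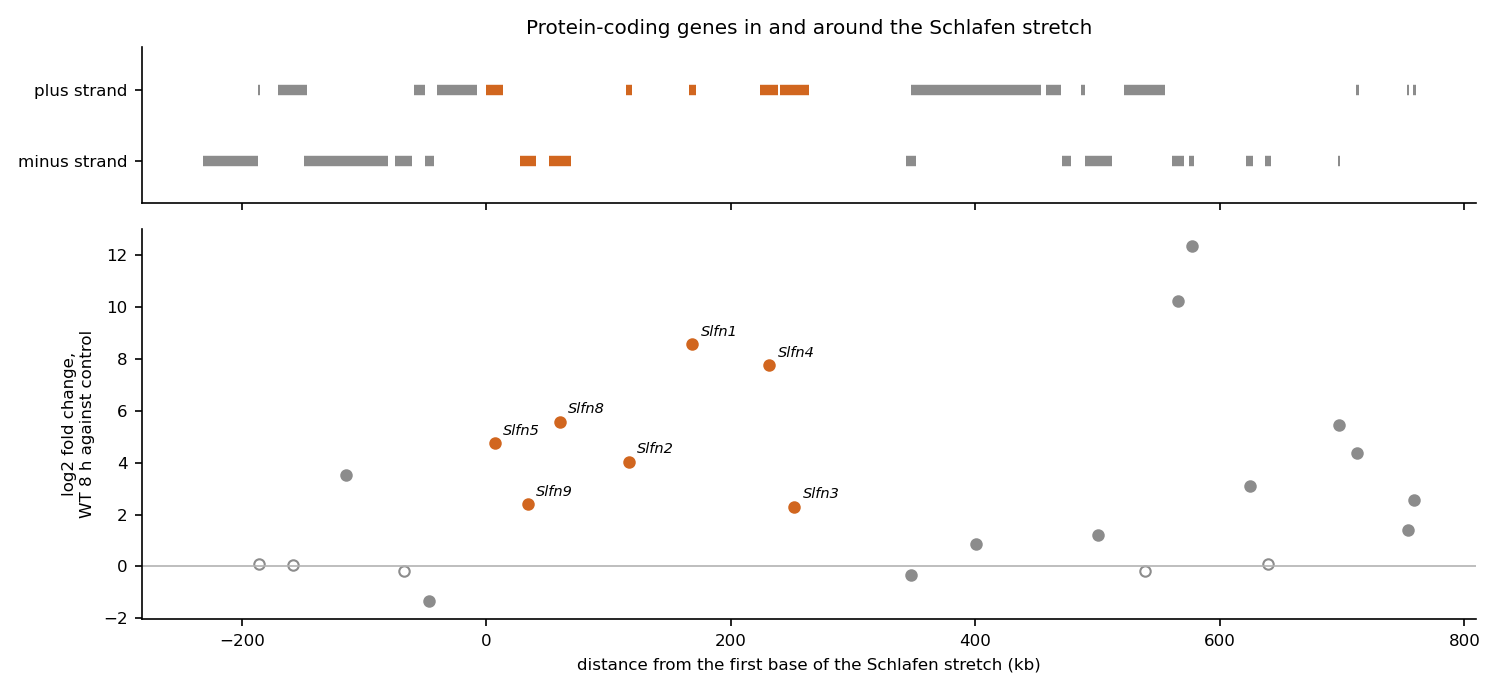
The 7 Schlafen genes (orange) and 24 neighbouring protein-coding genes (grey) by distance from the first base of the stretch (x axis, kb), by strand in the upper panel and by log2 fold change at 8 h of LPS in WT-labelled libraries in the lower panel (y axis; 17 tested neighbours, filled where the adjusted p was below 0.05). The members span 2.30 to 8.56, and neighbours such as Ccl5 reach 12.34.

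Relatives of the members had values of their own. Slfn10-ps, a pseudogene near in sequence to Slfn8, rose by 1.42 at 8 h under the WT label and 1.17 under the KO label, and Slfn14 and Slfnl1 had at most 3 counts in any library and were not tested. Gm11427, a pseudogene 92.6% identical to Slfn3 over 1399 bases, fell at 2 h under the WT label (log2 change -0.78, SE 0.15, adjusted p = 5.53e-05) and rose at 8 h (1.43, SE 0.14, adjusted p = 1e-10). Gm20234, which lies antisense to Slfn2 without sharing exon bases with it, rose by 4.41 (SE 0.30) at 2 h and 4.37 (SE 0.30) at 8 h.

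The members' patterns over the 36 libraries were described with Pearson's r of log2 CPM, which all groups and the library sets share. Slfn5 and Slfn8 were the most alike pair (r = 0.9925) and Slfn2 and Slfn4 the least alike (r = 0.6297). Among 9313 genes with enough counts, the closest to Slfn5 were Irgm1 (r = 0.997) and Tapbp (r = 0.9961), and to Slfn8 Samd9l (r = 0.9959) and Irgm2 (r = 0.9943). Slfn2 was closest to Gbp5 (r = 0.9913) and Nfkbib (r = 0.9864), and Slfn1 to Usp18 (r = 0.9818) and Irf7 (r = 0.9817). Slfn4 was closest to Ass1 (r = 0.9831) and Bst2 (r = 0.9813), Slfn9 to Xrn2 (r = 0.9813) and Pcgf5 (r = 0.9775), and Slfn3 to Eif2ak2 (r = 0.9637) and Dcp2 (r = 0.9602).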

How the data were processed

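The authors deposited whole-number counts for every gene of each library, not normalized. Reads were counted with HTSeq on mm10, per the submitters' processing notes; aligner, versions, annotation and strand: not given in the sources used here. Of 54232 identifiers, 54165 were found in GENCODE M21, used for symbols and positions. RefSeq promoter windows were taken for GRCm38.p6; protein sequences were not used here. Counts were tested with edgeR 4.0.16 in R 4.3.3: filterByExpr left 12957 genes, library sizes were scaled by the trimmed mean of M-values (TMM), CPM are relative to these sizes, and a quasi-likelihood model with 1 mean for each of the 6 groups was fitted to all 36 libraries. Genes with a Benjamini-Hochberg adjusted p below 0.05 over all tested genes were called. SE were computed from the F statistic. The interaction of genotype label and library set was fitted with 12 means. Library pairs within a group differed by a mean chi-square per gene between 2.08 and 84.8, so no library was counted as a copy. This does not show that libraries came from separate animals or cultures, in the pooled fit or within a library set. The fit was tested on simulated data. The alternatives were DESeq2 1.42.0, limma-voom (limma 3.58.1), other scalings and filters, and subsets of libraries. Named were the 7 members, genes of the interferon pathway (1 is not reported here), the 4 extreme interferon-stimulated genes, the 4 neighbours with the largest change and the 2 genes most like each member. The members and lists were chosen with earlier results of these data known. Transcript identity is that of the best local match found with blastn, and promoter identity was computed with Biopython 1.88.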

Additional observations from a re-analysis of the deposited data

Results flagged for a closer look

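In 4 of 42 groups of 6 libraries 1 value lay farther from the others than a Dixon test at the 95% level allows; chance flags about 1 in 20. These were Slfn1 in WT-labelled 2 h replicate 1 (4.20 CPM), Slfn2 and Slfn8 in WT-labelled control replicate 1 (236 and 26.1 CPM) and Slfn2 in KO-labelled 8 h replicate 2 (2216 CPM). The same WT-labelled control library was the highest for Slfn2, Slfn5 and Slfn8.

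The difference between KO-labelled and WT-labelled libraries was called larger in library set B than in set A for 11 combinations of gene and treatment, by the interaction in edgeR's fit with 12 means. The estimate was positive for every member in each treatment. In controls the log2 difference between the sets was 1.25 for Slfn2, 1.24 for Slfn3, 3.54 for Slfn4, 1.77 for Slfn5 and 1.86 for Slfn8. At 2 h it was 3.47 for Slfn1, 1.0 for Slfn3, 2.94 for Slfn4, 1.32 for Slfn5 and 1.59 for Slfn8, and at 8 h 0.87 for Slfn4. The sets were found in these data and carry no label.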

How the results depend on the processing

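Counts of members called kept within 1.5 times of the value reported for all 8 h comparisons of LPS under every alternative run. No paired analysis was possible because the labels carry no replicate numbers, and those used here only follow accession order. Whether libraries of different groups share a culture or animal was not tested. Leaving out 1 library in turn gave 0 to 4 members between the labels in controls and 1 to 2 in the interaction with library set at 8 h, where Slfn1 was also called without WT-labelled 8 h replicate 2 (0.96, adjusted p = 0.0459). Members called between the labels in controls were 4 by DESeq2, 2 with library set as a term and 7 in set B alone, where 6 were called at 2 h and 7 at 8 h. In set B alone the difference between responses was called for 3 members at 2 h and 7 at 8 h, and the 2 h response under the KO label for 7, against 6 in set A alone. The interaction at 8 h was called for 4 members without a filter and 2 by limma-voom. In a fit of the controls only, Slfn1 was filtered out and has no value. The cause of these changes was not tested.

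Directions reversed mostly in set A alone. There the 2 h response of Slfn4 was -0.53 under WT and -0.35 under KO. KO minus WT in controls was -0.18 for Slfn3, -0.60 for Slfn4, -0.066 for Slfn5 and -0.081 for Slfn9. At 2 h it was -0.85 for Slfn1, -0.088 for Slfn2, -0.13 for Slfn3, -0.42 for Slfn4, -0.26 for Slfn5 and -0.66 for Slfn8, and at 8 h -0.30 for Slfn1 and -0.32 for Slfn4. The difference between responses was 0.056 for Slfn3 at 2 h and 0.31 for Slfn3, 0.28 for Slfn4 and 0.21 for Slfn5 at 8 h. Elsewhere KO minus WT at 2 h was -0.0013 for Slfn2 by library totals and -0.0011 without a filter, and for Slfn9 0.087 without the BMDM-labelled libraries, 0.053 without those with muscle markers and 0.19 in set B alone. The difference between 2 h responses of Slfn4 was -0.25 by limma-voom, -0.013 without BMDM-labelled libraries and -0.44 in set B alone. Leaving out 1 library moved it between -0.23 and 0.58, and KO minus WT at 2 h between -0.049 and 0.10 for Slfn2 and between -0.10 and 0.050 for Slfn9. Of these, the value that passed was that of Slfn9 in set B alone (adjusted p = 0.0303).

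Counts over all genes also moved by more than 1.5 times. Library totals gave 7618 against 4915 calls at 2 h under WT, 7278 against 4568 under KO, and 39 against 13 between the labels at 8 h, of which 17.9% were higher against 53.8%. Between the labels in controls, 19 calls became 86 by DESeq2, 3 by limma-voom, 1 in a fit of these groups only, 30 with library set as a term, 7 in set A and 1362 in set B. At 2 h 3 became 5 by DESeq2, 9 with the term, 9 within set A alone and 1363 within set B. At 8 h 13 became 96 by DESeq2, 29 by limma-voom, 0 in the groups only, 8 without a filter, 26 without BMDM-labelled libraries, 151 with the term, 6 in set A and 4084 in set B. For the difference between responses, 0 became 133 in set B at 2 h, and 4 by DESeq2, 3 with the term and 2154 in set B at 8 h. The interaction had 540 against 260 calls in controls and 516 against 291 at 2 h without a filter, and 480 against 750 at 8 h without libraries with muscle markers. Stretches of 50 bases raised the shared share to 11.3% for Slfn4, 4.27% for Slfn2, 16% for Slfn3, 14.6% for Slfn8, 11.9% for Slfn9 and 11.1% for Slfn5. With 150 bases it was 0% for Slfn2, Slfn4 and Slfn8, 1.29% for Slfn3, 1.46% for Slfn9 and 5.46% for Slfn5.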
